A study of Mus musculus with 6 samples.

Results

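The 10 genes described here encode the cytokines IL-6 (Il6), IL-10 (Il10), IL-1α (Il1a), IL-1β (Il1b) and IL-16 (Il16), the IL-1 receptor antagonist (Il1rn), and the chains of the IL-6 receptor (Il6ra, Il6st) and of the IL-10 receptor (Il10ra, Il10rb). They were chosen by symbol for what they encode, with earlier results of these data known. They are 10 of the 23420 gene symbols measured. All 10 passed a filter on low values, at least 0.5 CPM (reads of a gene scaled to a fixed library total) in at least 3 libraries, as did 11844 genes in all. RNA-seq was done on bead-purified splenic B cells of MRL/lpr mice, which carry the Fas lpr mutation and develop a lupus-like disease. Every mouse in both groups was also Tlr9-/- with an unmodified TLR7, so the stimulated and the unstimulated cells alike lacked TLR9. The mice were male and 5 to 7 weeks old, and their cells were held in culture for 4 h, either with CL097, a small-molecule agonist of TLR7, at 5 µg/ml (3 libraries) or without a stimulus (3 libraries). Both groups were numbered 1 to 3. The labels name 3 mice without tying each number to a mouse, so the p-values measure the spread between these libraries, which may be partly technical. B cells were enriched by antibody removal of other cells rather than by a sort, and TLR9 was missing in all cells of these mice, not in B cells alone.

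IL-6 binds its own receptor chain, IL-6Rα, and the complex then engages gp130, the product of Il6st, which is shared by a family of cytokines. IL-10 binds IL-10Rα, which pairs with IL-10Rβ. Both cytokines signal through JAK kinases and STAT3, and both are products of activated B cells. IL-1α and IL-1β bind IL-1R1, which signals through MyD88 as the TLRs do, and the IL-1 receptor antagonist occupies the same receptor without signalling. IL-1β is made as a precursor that caspase-1 cuts, and IL-16 is a ligand of CD4 that shares no family with the IL-1 proteins.

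The sequence upstream of the transcription start is shown for Il6, Il1b and Il1a, which were higher after CL097, and for Il6ra, which was lower, because motifs of inducible promoters were found in some and not in others. Each is the 250 bases before the start from RefSeq (build GRCm38.p6), 5′ to 3′ on the strand of the gene, and the capitals mark a motif match. Il6 is chr5:30012864-30013113 on the plus strand, Il1b is chr2:129371140-129371389, Il1a is chr2:129309973-129310222 and Il6ra is chr3:89913197-89913446, all on the minus strand.
Il6: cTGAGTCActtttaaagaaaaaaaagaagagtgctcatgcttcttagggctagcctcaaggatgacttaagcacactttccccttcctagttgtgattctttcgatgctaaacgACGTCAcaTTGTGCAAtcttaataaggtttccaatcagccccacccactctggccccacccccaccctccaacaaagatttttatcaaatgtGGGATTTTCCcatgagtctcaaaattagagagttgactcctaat
Il1b: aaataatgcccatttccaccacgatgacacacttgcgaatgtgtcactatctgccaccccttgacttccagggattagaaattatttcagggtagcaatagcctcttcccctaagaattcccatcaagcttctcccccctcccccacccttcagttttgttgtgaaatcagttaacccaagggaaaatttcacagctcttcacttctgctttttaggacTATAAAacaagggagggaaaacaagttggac
Il1a: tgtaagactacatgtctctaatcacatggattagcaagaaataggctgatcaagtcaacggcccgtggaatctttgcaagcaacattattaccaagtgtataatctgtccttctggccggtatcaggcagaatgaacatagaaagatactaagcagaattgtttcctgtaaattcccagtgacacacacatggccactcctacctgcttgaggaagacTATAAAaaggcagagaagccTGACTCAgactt
Il6ra: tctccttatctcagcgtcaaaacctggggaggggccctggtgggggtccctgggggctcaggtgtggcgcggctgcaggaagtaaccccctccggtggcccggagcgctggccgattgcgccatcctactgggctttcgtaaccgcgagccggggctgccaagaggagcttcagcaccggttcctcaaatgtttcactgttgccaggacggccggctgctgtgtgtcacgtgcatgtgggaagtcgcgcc

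Motifs were searched on both strands, and positions count back from the transcription start, with -1 the base before it. The Il6 stretch held the consensus of NF-kB at -44 to -35, the AP-1 motif TGANTCA at -249 to -243, the C/EBP motif TTGCNNAA at -128 to -121 and ACGTCA, a CRE-like motif, at -136 to -131, with no overlap between them. Il1a held TATAAA at -32 to -27 and TGANTCA at -12 to -6. Il1b held only TATAAA, at -31 to -26. No match to these motifs or to the STAT motif TTCNNNGAA lay in the Il6ra stretch or in that of Il6st. The promoter table used here, taken from RefSeq, was matched for 7 of the 10 genes, and Il10, Il10ra and Il10rb were not analysed here. Of the 3 starts listed for Il1rn, the first had TGANTCA at -141 to -135. Of the 3 starts of Il16, the first had TGANTCA at -18 to -12 and the last had the NF-kB consensus on both strands, overlapping each other, at -49 to -39 and TTGCNNAA at -242 to -235. Among 32851 promoter stretches of the same length, 7.25% held the NF-kB consensus, 6.75% TGANTCA, 9.56% TTGCNNAA, 6.47% ACGTCA, 7.02% TTCNNNGAA and 12.4% TATAAA. These matches describe letters only and do not show that a factor was bound.

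After CL097, 5 of the 10 genes were called higher and 5 lower. The ligands Il6, Il10, Il1b and Il1a and the antagonist Il1rn were higher, whereas all 4 receptor chains and Il16 were lower. A call here is an adjusted p under 0.05 with an absolute log2 fold change over 0.5, from limma over all 11844 tested genes. Among these genes, 24.0% were called higher (2837) and 23.6% lower (2799), so calls were common in both directions. The groups did not overlap for 9 of the 10 genes, against 65.8% of all tested genes. With the replicate number as a block in the model, the counts were again 5 and 5, and 25.9% of all genes were called higher and 25.8% lower. Over the 10 genes the log2 fold change had a median of 0.54, beside 0.002 over all tested genes. In bulk RNA, fewer cells of a type and less RNA per cell cannot be told apart, and the deposited values compare a gene only with the rest of its library.

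**Figure D1:**
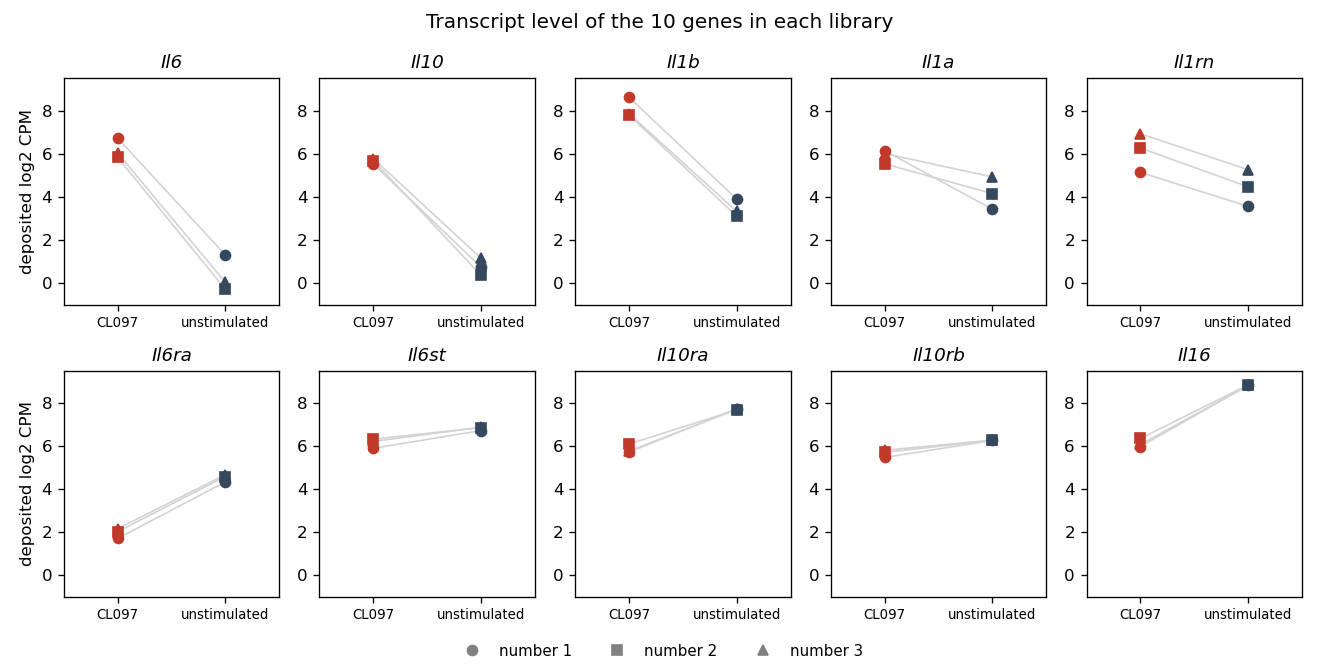
Deposited log2 CPM (vertical axis, the same in every panel) of each of the 10 genes in the 3 CL097 libraries (left) and the 3 unstimulated libraries (right), 1 point per library, with the marker shape giving the replicate number and a grey line joining libraries of equal number. The 5 genes called higher and the 5 called lower separate by group in every panel except Il1rn, where CL097 library 1 at 35.1 CPM lies below unstimulated library 3 at 38.4 CPM.

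Il6 encodes a cytokine that promotes plasma cell and follicular T helper cell differentiation, and in the annotation it lies on chromosome 5 at 30013114-30019981 (plus strand; GENCODE M21, GRCm38). Its level was 106, 57.1 and 65.6 CPM in CL097 libraries 1, 2 and 3, against 2.47, 0.818 and 1.03 CPM in unstimulated libraries 1, 2 and 3. The lowest CL097 library was well above the highest unstimulated library, and library 1 was the highest of its group in both conditions. Il6 averaged 76.1 ± 25.9 CPM in CL097 cells and 1.44 ± 0.899 CPM in unstimulated cells (SD, n = 3 each). On the log2 scale Il6 rose by 5.85 (SE 0.42, adjusted p = 1.13e-05), geometrically 57.6-fold, and this was the 3rd largest among all tested genes. Because unstimulated Il6 was near 1 CPM, the size of the rise depended on the pseudocount, and with 1 CPM added to each value it was 4.99, or 31.8-fold. Within numbers 1, 2 and 3 the log2 differences were 5.42, 6.13 and 6.0.

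Il10, on chromosome 1 at 131019845-131024974 (plus strand), encodes an anti-inflammatory cytokine that regulatory B cells secrete. It stood at 46.1, 51.4 and 54.7 CPM in CL097 libraries 1, 2 and 3, against 1.66, 1.28 and 2.22 CPM in unstimulated libraries 1, 2 and 3. The CL097 libraries were close to one another, unlike those of Il6. The means were 50.7 ± 4.35 CPM in CL097 cells and 1.72 ± 0.472 CPM in unstimulated cells, and the rise on the log2 scale was 4.91 (SE 0.22, adjusted p = 1.63e-06), 30.2-fold and the 9th largest rise. With 1 CPM added to each value it was 4.26, or 19.2-fold. The rise of Il6 exceeded that of Il10 within every number, by 0.63, 0.80 and 1.38 on the log2 scale in numbers 1, 2 and 3.

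Il1b, on chromosome 2 at 129364570-129371139 (minus strand), encodes IL-1β, which is secreted after caspase-1 cleaves its precursor. The CL097 libraries 1, 2 and 3 held 394.8, 222 and 233 CPM, against 14.9, 8.57 and 10.0 CPM in unstimulated libraries 1, 2 and 3. Il1b was the most abundant of the 5 rising genes after CL097, and its within-number differences of 4.73, 4.70 and 4.54 were nearly equal although the levels were not. The means were 283 ± 96.8 CPM in CL097 cells and 11.1 ± 3.29 CPM in unstimulated cells. Its log2 fold change was 4.66 (SE 0.26, adjusted p = 3.78e-06), 25.2-fold and the 11th largest rise. With 1 CPM added to each value the rise of Il1b was 4.53, above that of Il10, so the order of these genes depended on the pseudocount.

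Il1a is the neighbour of Il1b on the same strand, at 129299610-129309972, and encodes IL-1α, which is active also as the uncut precursor. Its levels were 70.5, 46.2 and 64.4 CPM in CL097 libraries 1, 2 and 3, against 10.7, 17.8 and 30.3 CPM in unstimulated libraries 1, 2 and 3. The groups did not overlap, but the unstimulated libraries spanned a wide range. Il1a averaged 60.4 ± 12.7 CPM in CL097 cells and 19.6 ± 9.92 CPM in unstimulated cells, and it rose by 1.73 on the log2 scale (SE 0.35, adjusted p = 0.00302), or 3.31-fold. The rise was uneven, at 6.56-fold in number 1, 2.6-fold in number 2 and 2.12-fold in number 3. Il1b rose more than Il1a by 2.02, 3.32 and 3.45 on the log2 scale in numbers 1, 2 and 3.

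Il1rn, on chromosome 2 at 24336853-24351494 (plus strand), encodes the antagonist of both IL-1 proteins. The CL097 libraries 1, 2 and 3 held 35.1, 76.9 and 122 CPM, against 11.8, 22.1 and 38.4 CPM in unstimulated libraries 1, 2 and 3. Within a group the libraries differed about as much as the groups did, and the groups overlapped. The means were 77.9 ± 43.3 CPM in CL097 cells and 24.1 ± 13.4 CPM in unstimulated cells, or 1.68 on the log2 scale (SE 0.52, adjusted p = 0.0227), 3.21-fold. Within numbers 1, 2 and 3 the differences were even, at 1.58, 1.80 and 1.67 on the log2 scale, and with the replicate number as a block the SE was 0.09 and the adjusted p was 5.33e-06. In the unblocked model the call was lost without CL097 library 2 (log2 fold change 1.60, adjusted p = 0.0622), CL097 library 3 (1.27, adjusted p = 0.0677), unstimulated library 1 (1.25, adjusted p = 0.0643) or unstimulated library 2 (1.70, adjusted p = 0.0609), and without number 2 in both groups (1.62, adjusted p = 0.134). The rise of Il1b exceeded that of Il1rn by 3.16, 2.90 and 2.88 on the log2 scale in numbers 1, 2 and 3.

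**Figure D2:**
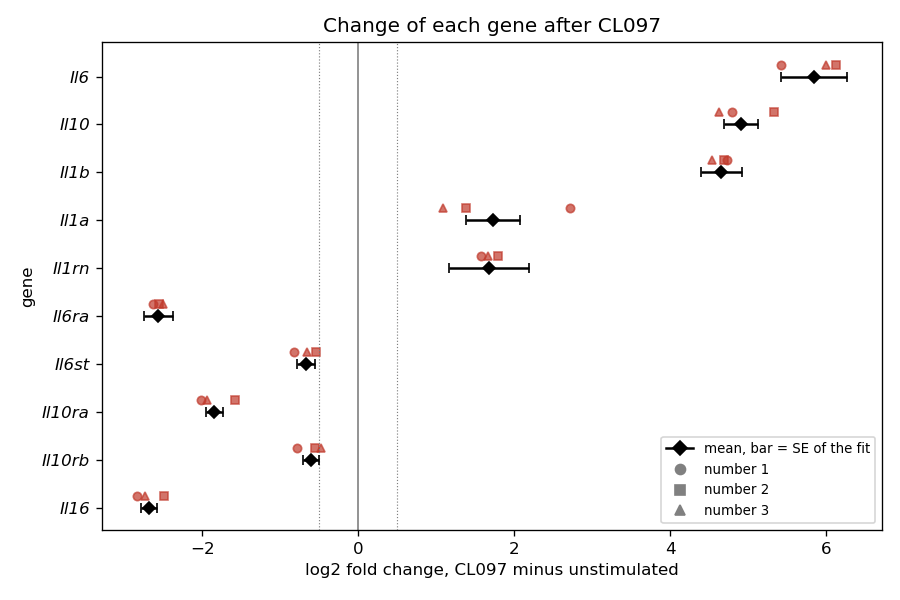
Log2 fold change of each gene, CL097 over unstimulated, as a diamond with its SE from limma as the bar, the difference within each replicate number as points above it, and dotted lines at the threshold of 0.5 in either direction. The changes run between 5.85 for Il6 and -2.69 for Il16, and for Il1rn, Il1b and Il6ra the points lie closer together than the SE.

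Both chains of the IL-6 receptor were lower. Il6ra, on chromosome 3 at 89864059-89913196 (minus strand), encodes the chain that binds IL-6. It held 3.26, 4.06 and 4.47 CPM in CL097 libraries 1, 2 and 3, against 20.2, 23.9 and 25.4 CPM in unstimulated libraries 1, 2 and 3. The groups were far apart, with means of 3.93 ± 0.615 CPM in CL097 cells and 23.2 ± 2.67 CPM in unstimulated cells. The difference on the log2 scale was -2.57 (SE 0.18, adjusted p = 1.09e-05), 5.92-fold lower. Il6st, on chromosome 13 at 112464070-112510086 (plus strand), encodes gp130. It held 59.4, 79.7 and 74.1 CPM in CL097 libraries 1, 2 and 3, against 105.0, 116 and 117 CPM in unstimulated libraries 1, 2 and 3. Its log2 fold change of -0.67 (SE 0.12, adjusted p = 0.0015), 1.59-fold lower, was smaller than that of Il6ra within every number, and Il6ra minus Il6st came to -1.81, -2.02 and -1.85 in numbers 1, 2 and 3.

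The chains of the IL-10 receptor were lower as well. Il10ra, on chromosome 9 at 45253837-45269149 (minus strand), encodes the chain particular to IL-10. It held 52.4, 68.2 and 54.2 CPM in CL097 libraries 1, 2 and 3, against 213, 204 and 208 CPM in unstimulated libraries 1, 2 and 3. On the log2 scale Il10ra changed by -1.85 (SE 0.11, adjusted p = 4.25e-06), 3.60-fold lower, with group means of 58.3 ± 8.64 CPM in CL097 cells and 208 ± 4.36 CPM in unstimulated cells. Il10rb, on chromosome 16 at 91406164-91425834 (plus strand), encodes a chain that the receptors of IL-22 and of the interferon lambda proteins also use. Its levels were 44.3, 52.2 and 55.7 CPM in CL097 libraries 1, 2 and 3, against 76.5, 76.7 and 77.4 CPM in unstimulated libraries 1, 2 and 3. It fell less than Il10ra, with -0.61 on the log2 scale (SE 0.10, adjusted p = 0.0011), 1.52-fold lower. Il10ra minus Il10rb was -1.23, -1.03 and -1.46 on the log2 scale in numbers 1, 2 and 3. For both receptors the ligand-specific chain showed the larger difference and the shared chain the smaller one.

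Il16, on chromosome 7 at 83642825-83745726 (minus strand), had the 161st largest fall of all tested genes. Among the 10 genes it fell the most on average, but it was not separated from Il6ra: Il6ra fell more in number 2 (-2.56, against -2.49 for Il16), and without CL097 library 3 both changed by -2.66. It held 62.9, 81.5 and 67.3 CPM in CL097 libraries 1, 2 and 3, against 450.1, 457 and 449 CPM in unstimulated libraries 1, 2 and 3. The unstimulated libraries lay within a narrow band. The means were 70.6 ± 9.69 CPM in CL097 cells and 452 ± 4.33 CPM in unstimulated cells, and the change on the log2 scale was -2.69 (SE 0.10, adjusted p = 9.40e-07), 6.44-fold lower. The exons of Il16 share 1202 bases with Stard5, a gene of the opposite strand, and although the library kit was stranded, the strand setting of the read counting is not given in the sources used here. Stard5 held 18.5, 13.3 and 14.8 CPM in CL097 libraries 1, 2 and 3, against 26.0, 26.5 and 33.4 CPM in unstimulated libraries 1, 2 and 3 (log2 fold change -0.89, SE 0.17, adjusted p = 0.00206). Smaller exon overlaps were annotated for Il10rb with Gm21970 on the same strand (569 bases), Il6ra with Gm42809 (242 bases), Il1a with Gm14023 (222 bases), Il16 with 2310044K18Rik (166 bases) and Il1b with an antisense transcript (25 bases). Gm14023 was under the filter, at 1.17, 0.459 and 0.330 CPM in CL097 libraries and 0.209, 0.349 and 0.549 CPM in unstimulated libraries 1, 2 and 3.

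To compare levels between genes, CPM were divided by the length of the merged annotated exons, which overstates the length of any transcript shorter than the union. Per kilobase, Il1b was the highest in CL097 cells at 149 CPM per kb, clear of all others. Il10 (38.7), Il6 (31.3) and Il1a (30.6 CPM per kb) followed with overlapping ranges. Il10ra (16.7), Il1rn (14.1) and Il10rb (13.3 CPM per kb) came next, and the range of Il1rn, 6.35 to 22.0, covered those of Il10ra, Il10rb and Il16 and reached into that of Il6st. Il16 (8.97), Il6st (6.40) and Il6ra (0.454 CPM per kb) closed the order, and the ranges of Il16, Il6st and Il6ra did not overlap one another. In unstimulated cells Il10ra (59.5) and Il16 (57.4 CPM per kb) were the highest, followed by Il10rb (20.2), Il6st (10.1), Il1a (9.94), Il1b (5.84), Il1rn (4.35), Il6ra (2.68), Il10 (1.31) and Il6 (0.592 CPM per kb). Neighbouring ranges overlapped for Il6st with Il1a, Il1a with Il1b, Il1b with Il1rn, Il1rn with Il6ra and Il10 with Il6.

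**Figure D3:**
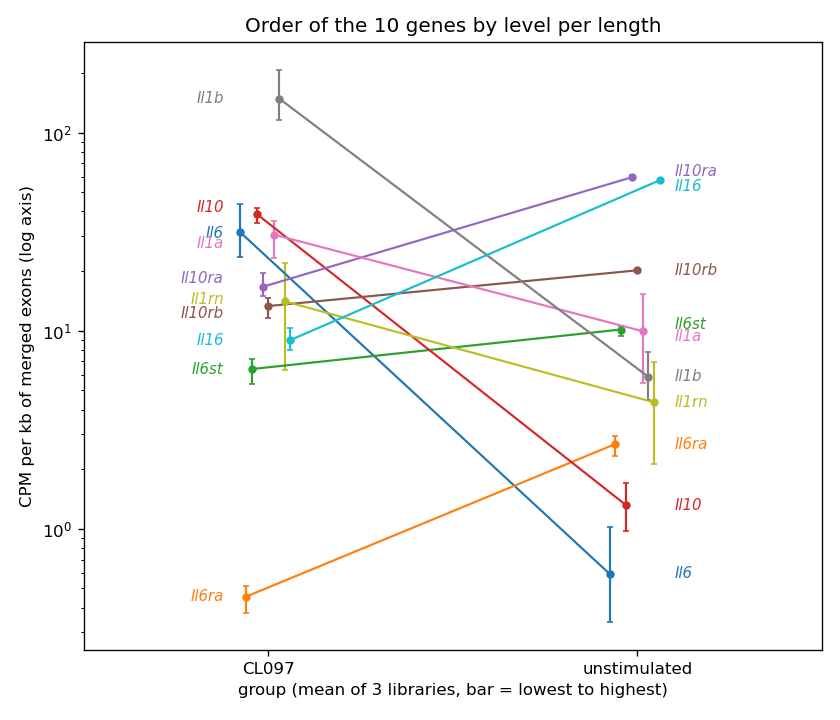
CPM per kilobase of merged exons on a log axis for each of the 10 genes, CL097 left of unstimulated, with the mean over 3 libraries as a point, the lowest to the highest library as a bar, and a line joining the means of a gene. Il1b stands at 149 CPM per kb in CL097 cells against 5.84 in unstimulated cells, and Il16 at 8.97 in CL097 cells against 57.4 in unstimulated cells.

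Levels of the IL-1 genes differed between library numbers. Il1rn in number 1 lay below the mean of numbers 2 and 3 by log2 differences of -1.46 in CL097 cells and -1.31 in unstimulated cells. Il1b in number 1 lay above it, by 0.80 in CL097 cells and 0.68 in unstimulated cells, and Il6 likewise by 0.79 in CL097 cells and 1.43 in unstimulated cells. Il1a differed between the groups, at 0.37 in CL097 cells and -1.11 in unstimulated cells. The 18 monocyte and macrophage markers summed to 143, 263 and 407 CPM in CL097 libraries 1, 2 and 3, against 192, 464 and 676 CPM in unstimulated libraries 1, 2 and 3. This is the order of Il1rn in both groups and of Il1a in unstimulated cells, but not that of Il1b or Il6. Among the receptor chains, Il6ra and Il10rb had the same order in both groups and Il6st had it in unstimulated cells, as did Il10 in CL097 cells, with smaller differences between libraries. Of the 17 markers tested, 1 was called higher (Ms4a7) and 1 lower (Ly6c2), and the sum was lower in CL097 cells in every number. Csf1r, the receptor of CSF-1, held 9.80, 25.7 and 48.4 CPM in CL097 libraries 1, 2 and 3, against 21.0, 52.9 and 92.9 CPM in unstimulated libraries 1, 2 and 3. Its log2 fold change of -1.03 was a larger fall than the median of the 17 tested markers, -0.16. Other markers differed in size and direction, such as Lyz2 (-1.54), C1qb (-0.05) and Itgam (0.45). The part of these cells in the levels of the 10 genes was not tested. Libraries of 1 number also share exact values at many genes, so any adjustment by number made before deposit is part of these differences in level.

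**Figure D4:**
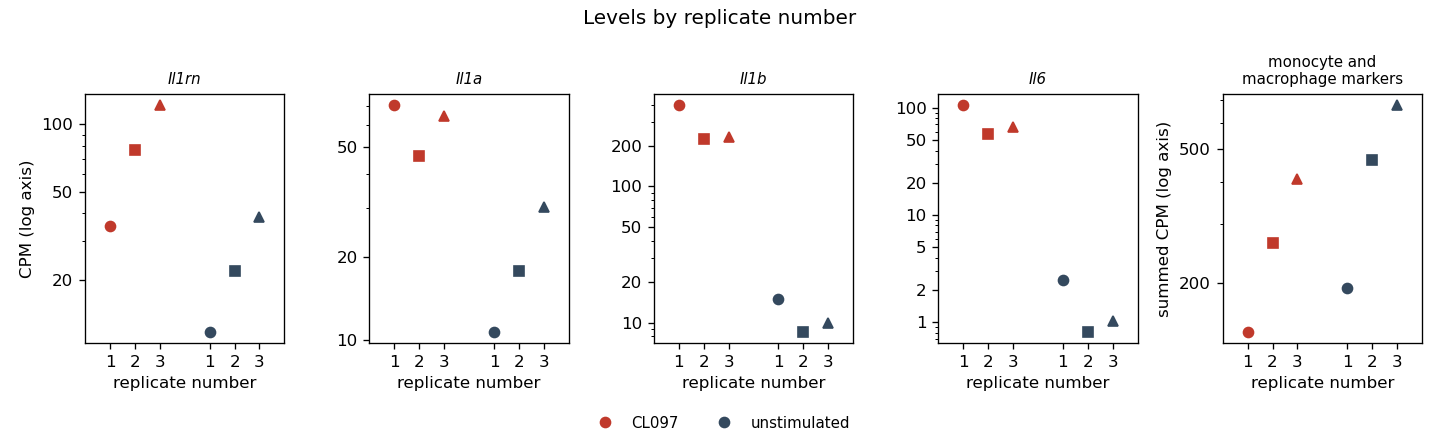
CPM on log axes of Il1rn, Il1a, Il1b and Il6 and the summed CPM of the monocyte and macrophage markers, by replicate number, CL097 left of unstimulated, 1 point per library, with an axis range of its own in each panel. Il1rn and the marker sum are lowest in number 1 of both groups, whereas Il1b and Il6 are highest there.

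The other marker lists were checked the same way. All 10 B cell markers were measured, with sums of 3141 to 3759 CPM in CL097 libraries against 6847 to 7796 CPM in unstimulated libraries, and 7 were called lower. Dendritic cell markers summed to 77.3 to 95.5 CPM in CL097 libraries against 32.8 to 50.2 CPM in unstimulated libraries. Of these, 1 of 5 tested was called higher (Zbtb46), and Xcr1, Clec9a, Cd209a, Clec10a and Batf3 were under the filter. Most of the rise in the sum was Zbtb46, at 47.7 CPM in CL097 cells and 8.22 CPM in unstimulated cells on average. Itgax was lower in every number, averaging 2.63 CPM in CL097 cells and 4.54 CPM in unstimulated cells, and was called lower only with the replicate block. The median log2 fold change of the 5 tested was -0.003. Neutrophil markers summed to 17.4 to 52.9 CPM in CL097 libraries against 26.9 to 66.6 CPM in unstimulated libraries, with 0 of 8 tested called by limma (0 at an unadjusted p under 0.05; with the replicate block, 1 higher and 4 lower). T cell markers summed to 6.92 to 11.4 CPM in CL097 libraries against 7.27 to 9.34 CPM in unstimulated libraries, with 2 of 5 tested called higher (Cd8a and Cd8b1) and 1 lower (Cd5), and Cd3e, Cd3d and Cd3g were under the filter. NK cell markers summed to 3.41 to 6.35 CPM in CL097 libraries against 4.24 to 6.17 CPM in unstimulated libraries, with 0 of 3 tested called by limma (0 at an unadjusted p under 0.05; with the replicate block, 1 lower). Plasma cell markers summed to 450.1 to 666 CPM in CL097 libraries against 950.3 to 1478 CPM in unstimulated libraries, with 4 of 5 tested called lower. Erythroid markers ranged widely, between 212 and 7514 CPM in CL097 libraries and between 206 and 5245 CPM in unstimulated libraries, and were lowest in number 1 of both groups. The part of these differences in the results for the 10 genes was not tested.

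The counts for this and the following lists stand beside 24.0% called higher and 23.6% lower among all tested genes. The lists are short, and whether their shares differ from these was not tested. In the wider IL-6 family, 9 of 17 listed genes were tested, of which 3 were called higher and 4 lower. Lif, a ligand that also uses gp130, rose to 5.09 ± 2.62 CPM in CL097 cells, against 0.214 ± 0.0358 CPM in unstimulated cells (log2 fold change 4.47, SE 0.44, adjusted p = 5.91e-05). Ebi3, a subunit of IL-27 and IL-35, rose to 59.8 ± 2.59 CPM in CL097 cells, against 4.43 ± 0.962 CPM in unstimulated cells (3.78, SE 0.18, adjusted p = 1.92e-06). The receptor genes Lifr (-2.26, SE 0.82, adjusted p = 0.0435) and Il27ra (-1.22, SE 0.16, adjusted p = 0.000348) fell, as Il6ra and Il6st did. Lifr was low, at 0.121, 1.18 and 0.788 CPM in CL097 libraries 1, 2 and 3, against 1.44, 2.80 and 3.07 CPM in unstimulated libraries. Its log2 differences were uneven, at -3.57, -1.25 and -1.96 in numbers 1, 2 and 3. The IL-10 family list had 3 of 9 genes tested, and the 1 called was Ifnlr1, a receptor chain that pairs with IL-10Rβ, at 32.7 ± 4.58 CPM in CL097 cells against 2.35 ± 0.514 CPM in unstimulated cells (log2 fold change 3.81, SE 0.21, adjusted p = 3.14e-06).

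Other IL-1 family genes moved in both directions, with 5 of 10 tested called higher and 1 lower. Il18rap, the accessory chain of the IL-18 receptor, changed by 2.99 on the log2 scale (SE 0.26, adjusted p = 3.21e-05), and Il18r1, its ligand-binding chain, by 1.49 (SE 0.25, adjusted p = 0.00119). The other 3 were Il1r1, the signalling receptor of IL-1 (1.29, adjusted p = 0.00132), the decoy Il1r2 (0.76, adjusted p = 0.0202) and the accessory chain Il1rap (0.63, adjusted p = 0.00347). Il1r1 averaged 8.77 CPM in CL097 cells and 3.52 CPM in unstimulated cells, so the IL-1 receptor genes differed in direction from those of IL-6 and IL-10. Sigirr, an inhibitory member of the receptor family, fell to 4.87 ± 1.61 CPM in CL097 cells, against 23.8 ± 1.82 CPM in unstimulated cells (log2 fold change -2.33, SE 0.23, adjusted p = 6.22e-05). With the replicate number as a block, Il18bp and Il1rl1 were called higher as well, which gave 7 higher and 1 lower. Il1rl1 did not reach the threshold unblocked (adjusted p = 0.0655), nor did Il18bp (adjusted p = 0.0669).

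The list of IL-1 maturation holds inflammasome sensors, caspases and the calpains, which cut the IL-1α precursor. Of the 10 tested, 6 were called lower, the other direction from Il1a and Il1b, and 1 higher. Among all tested genes 23.6% were called lower and 24.0% higher. Casp1, the protease of the IL-1β precursor, fell to 20.6 ± 0.258 CPM in CL097 cells, against 43.6 ± 1.43 CPM in unstimulated cells (log2 fold change -1.08, SE 0.09, adjusted p = 2.73e-05). The largest falls were Capn2, a calpain subunit (-2.03, SE 0.20, adjusted p = 6.37e-05), and Nlrc4, an inflammasome sensor (-1.71, SE 0.14, adjusted p = 2.57e-05). Pycard, the inflammasome adaptor ASC, was the 1 gene higher (0.61, SE 0.16, adjusted p = 0.0108). Nlrp3 was called lower only with the replicate block (log2 fold change -0.74, adjusted p = 0.0105, against 0.298 unblocked). On the list of IL-1 receptor and TLR signalling, 0 of 14 genes were called higher by limma (3 at an unadjusted p under 0.05, and 0 called with the replicate block) and 4 lower, led by Irak3, an inhibitor of the pathway (-2.00, SE 0.15, adjusted p = 1.25e-05), and Ikbkg (-0.82, SE 0.10, adjusted p = 0.000212). Myd88 had a log2 fold change of -0.004 (SE 0.10).

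Of 10 JAK and STAT genes, 4 were called higher and 3 lower. Socs3, the feedback inhibitor of gp130 signalling, rose to 371 ± 86.4 CPM in CL097 cells, against 9.69 ± 1.87 CPM in unstimulated cells (log2 fold change 5.25, SE 0.19, adjusted p = 8.66e-07), the 7th largest rise. Cish rose by 2.40 (SE 0.35, adjusted p = 0.000513), while Pias3, an inhibitor of STAT3 (-1.69, SE 0.16, adjusted p = 5.32e-05), and the kinase Tyk2 (-1.35, SE 0.11, adjusted p = 2.68e-05) fell. Of 20 transcription factors known from the Il6, Il10 or Il1b promoters, 10 were called higher and 1 lower. Batf, an AP-1 family factor, rose to 301 ± 7.96 CPM in CL097 cells, against 10.3 ± 1.13 CPM in unstimulated cells (4.87, SE 0.10, adjusted p = 2.75e-07). Nfkbiz, whose product IκBζ is required for Il6 induction in macrophages, rose to 1646 ± 139 CPM in CL097 cells, against 70.7 ± 12.7 CPM in unstimulated cells (4.55, SE 0.14, adjusted p = 8.35e-07). The 1 that fell was Spi1 (PU.1; listed as Sfpi1), by -1.01 on the log2 scale (SE 0.09, adjusted p = 4.17e-05).

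RNA-binding proteins that act on cytokine mRNA had 4 of 10 called higher and 1 lower. Zc3h12a, whose product Regnase-1 degrades Il6 mRNA, rose by 1.22 on the log2 scale (SE 0.13, adjusted p = 8.70e-05), and Elavl1, the mRNA-stabilising protein HuR, by 0.65 (SE 0.07, adjusted p = 9.88e-05). Zfp36l2, which promotes decay of AU-rich mRNA, fell to 47.3 ± 2.15 CPM in CL097 cells, against 199 ± 6.70 CPM in unstimulated cells (-2.07, SE 0.07, adjusted p = 8.66e-07). Cd4, which encodes the receptor of IL-16, was low, at 0.551, 0.908 and 2.01 CPM in CL097 libraries 1, 2 and 3 and 0.276, 0.702 and 1.60 CPM in unstimulated libraries 1, 2 and 3. The median log2 fold change of these lists ran between -0.78 for IL-1 maturation and 0.73 for the IL-1 family, beside 0.002 for all tested genes.

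**Figure D5:**
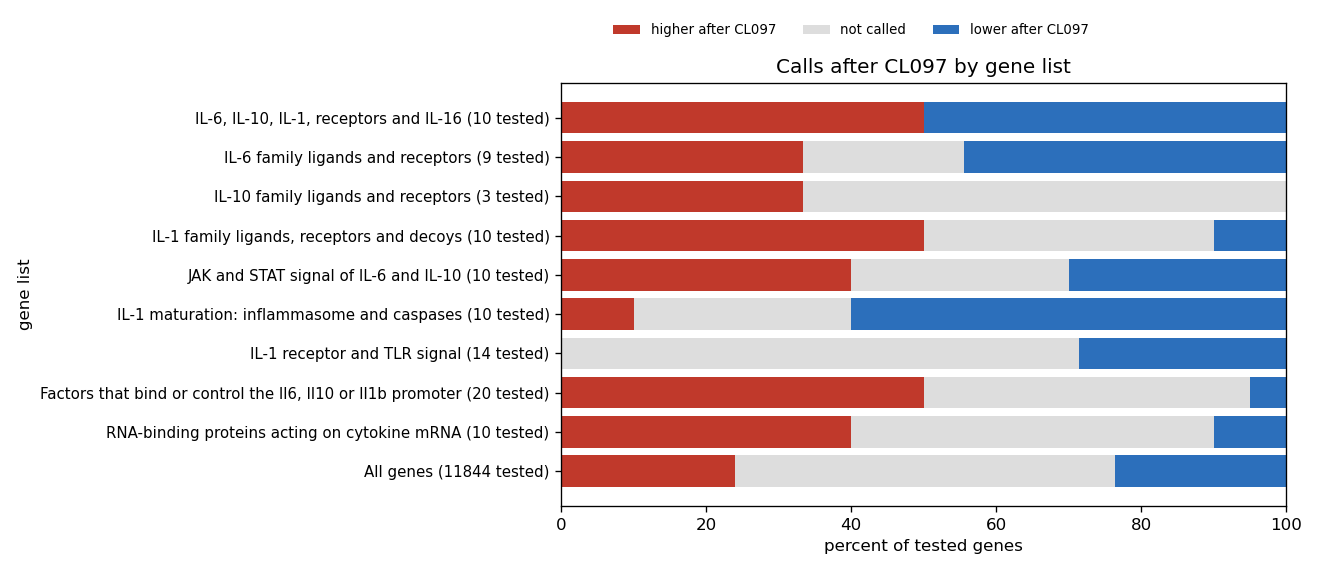
Percent of tested genes called higher (left), not called (middle) and called lower (right) after CL097 for the 10 genes described here, for 8 of the related lists and for all 11844 tested genes. The IL-1 maturation list has 1 gene higher and 6 lower, and the transcription factor list has 10 higher and 1 lower.

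The genes most like each of Il6, Il10, Il1b and Il16 were found by the Euclidean distance between log2 values centred on each gene's mean over the 6 libraries. Nearest to Il6 were 1110032F04Rik (0.98), Gareml (1.36) and Socs3 (1.39). For Il10 they were Rhbdl3 (0.65), the chemokine gene Ccl3 (0.72) and Batf (0.78). Il1b lay nearest to Lif (0.59), Slc7a3 (0.59) and Sytl3 (0.63), of which Lif is a ligand of the IL-6 family. Il16 had the closest neighbours of the 4, Itpr3 (0.15), Ets1 (0.15) and Cd2 (0.18).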

How the data were processed

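RNA-seq was done on 6 libraries of splenic B cells, 3 with CL097 and 3 without. The submitters' processing notes list build mm10, alignment with STAR 2.6.1a, counting with featureCounts (Subread 2.0.1), limma, and the read tools Trim Galore 0.6.5 and FastQC 0.11.7. The log2 CPM deposited by the authors are gene counts after voom with quantile normalization, 1 value per gene and library. The library kit was stranded and the methods state a target depth, but neither the annotation nor the strand setting of the counting was given in the sources used here, and the depth reached per library cannot be read from these values. Libraries of 1 number also share exact values at 2655 to 3108 of 17935 varying genes (347 to 396 between numbers). No source describes why, the cause was not tested, and values were used as deposited.

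Deposited log2 CPM were fitted with limma 3.58.1 (R 4.3.3; group only, variance trend) over the 11844 genes with at least 0.5 CPM (log2 of -1) in at least 3 libraries. P-values were two-sided and adjusted by Benjamini-Hochberg, and a call needed both an absolute log2 fold change over 0.5 and an adjusted p under 0.05. Same-numbered libraries deviated together (correlations of 0.568, 0.326 and 0.458, each over 0.1), so the numbers were taken as pairs, from the data and not from the labels, and the blocked model was the alternative. Fold changes are geometric, and CPM are 2 to the power of the deposited value. The fit was tested on simulated data.

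The genes and lists were chosen with earlier results of these data known. From each list up to 2 called genes with the largest rises and falls were named, and the other genes named (Il1r1, Il1r2, Il1rap, Il18bp, Il1rl1, Casp1, Nlrp3, Myd88, Cd4 and marker genes) were chosen after their values were seen. A result that needs a withheld item is not reported here. Older symbols were matched through RefSeq. Alternatives were the replicate block, other variance models, filters, pseudocounts, scalings and thresholds, and leaving out libraries. Figures were drawn with matplotlib 3.10.9.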

Additional observations from a re-analysis of the deposited data

How the results depend on the processing

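Under all 20 alternatives, 7 of the 10 genes kept their direction and call, and 0 of the 10 changed direction. With an absolute log2 fold change over 1 as the threshold, 3 genes were called lower in place of 5 (Il6st and Il10rb were not called), and 1534 of all genes were called higher and 1627 lower. The call of Il1rn was also lost without the variance trend (adjusted p = 0.0572), with a robust variance (0.0991), without a filter (0.0580) and without the libraries named beside its values, and its adjusted p ran between 5.33e-06 and 0.134 over all alternatives. Leaving out libraries gave 4 to 5 of the genes called higher and 5 called lower, and 2287 to 2996 of all genes higher and 2192 to 2972 lower. With the replicate block, 3065 genes were called higher and 3057 lower, and 5 and 5 of the 10 genes. The block changed no other call than those of Il18bp, Il1rl1 and Nlrp3 on the lists. The block with each number left out in turn, chosen after seeing the data, also gave 5 and 5. Adding 1 CPM moved the rise of Il6 to 4.99 and that of Il10 to 4.26 on the log2 scale. The depth reached is unknown, so the counting error of low levels, such as unstimulated Il6, could not be given.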

Other observations

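Other genes of the lists differed between library numbers. Il18, an IL-1 family cytokine, held 1.01, 4.16 and 7.09 CPM in CL097 libraries 1, 2 and 3, against 2.22, 3.64 and 8.03 CPM in unstimulated libraries 1, 2 and 3. Nlrp3, the inflammasome sensor, held 1.99, 4.40 and 6.89 CPM in CL097 libraries 1, 2 and 3, against 3.46, 6.04 and 13.5 CPM in unstimulated libraries 1, 2 and 3. Atf3, a stress-induced transcription factor, held 29.0, 45.3 and 53.7 CPM in CL097 libraries 1, 2 and 3, against 16.8, 40.3 and 54.3 CPM in unstimulated libraries 1, 2 and 3. All 3 genes were lowest in number 1 of both groups and were chosen after their values were seen.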
